A study of Mus musculus with 24 samples.

Results

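The genes described here are the translation initiation and elongation factors of the mouse, taken as every gene whose symbol in the count table begins with Eif1, Eif2, Eif3, Eif4, Eif5 or Eef. The 11 genes that share these prefixes but encode eIF2 kinases, Argonaute proteins or eIF4E-binding proteins (Eif2ak, Eif2c and Eif4ebp) were left out. The rule found 56 genes of 23364 in the table, and 55 of them could be tested for differential expression. By role they comprise 13 cap-binding and helicase factors, 6 genes of the eIF2 complex and its relatives, 5 subunits of the exchange factor eIF2B, 14 genes of the eIF3 complex, 7 start-codon and subunit-joining factors, and 11 elongation factors and their regulators.

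RNA was sequenced from haematopoietic stem cells (HSC) and multipotent progenitors (MPP1 and MPP2) of C57BL/6 mice aged 8 to 12 weeks, with a conditional allele of Mysm1, a gene for a histone H2A deubiquitinase. The KO group was Mysm1 fl/fl CreERT2 and the Het group was Mysm1 fl/+ CreERT2, and both received tamoxifen at 0.15 mg/g in 8 doses over 16 days, which removes exon 3 of floxed alleles. The Sham group carried floxed Mysm1 and received corn oil alone, and the protocol does not state whether it carried CreERT2. Each population had 3 KO, 3 Het and 2 Sham libraries, labelled 1, 2_3 and 4 (Sham lacks 1), each made from cells pooled from several mice of both sexes, so a p-value below measures the spread between pools. All cells were lineage-negative, cKit+, Sca1+, CD150+ and Flt3-, with CD34-CD48- as HSC, CD34+CD48- as MPP1 and CD34+CD48+ as MPP2.

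Protein synthesis starts when eIF2, carrying GTP and the initiator tRNA, joins the small ribosomal subunit together with eIF3 and the start-codon factors eIF1 and eIF1A, while eIF4E, eIF4G and the helicase eIF4A bind the capped end of the mRNA and recruit that complex. eIF2B reloads eIF2 with GTP, and eIF5 and eIF5B complete the joining of the large subunit. During elongation eEF1A delivers aminoacyl-tRNAs, the eEF1B complex (Eef1b2, Eef1d and Eef1g) recharges eEF1A, and eEF2 moves the ribosome along the mRNA. Haematopoietic stem cells are known for a low rate of protein synthesis, which rises in progenitors. Several elongation factors and some eIF3 and eIF4 subunits belong, like ribosomal proteins, to the TOP mRNAs, which begin with a tract of pyrimidines and whose translation follows mTORC1 activity.

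Library totals ranged from 18823971 to 53196624 counts. The HSC KO 1 and HSC Het 2_3 libraries had the fewest genes detected (15740 and 15932, against up to 21150), and the values without both are given beside the averaged comparison of KO with Het. Cd48 separated MPP2 (13.8 to 56.9 CPM, counts scaled to a common library size) from HSC and MPP1 (0 to 2.81 CPM), as the sort requires. In the MPP2 Het 2_3 library Flt3 stood at 98.0 CPM, against at most 24.9 CPM in the other MPP2 libraries, and 10 neutrophil genes summed to 3518 CPM, against 123 to 342 CPM. In the MPP2 Sham 2_3 library 8 late erythroid genes summed to 2045 CPM, against 901 to 1337 CPM in the other MPP2 libraries. Of these 8 genes, 2 had 0 counts there, and 1 or 2 had 0 counts in each other MPP2 library. The factors took 2.34 ± 0.18% of all counts in KO, 2.65 ± 0.31% in Het and 2.62 ± 0.15% in Sham HSC (SD, n = 3, 3 and 2). In MPP2 these shares were 2.28 ± 0.11%, 2.24 ± 0.06% and 2.48 ± 0.21%. Whole-gene counts cannot check a deletion of exon 3, so the genotypes rest on the labels.

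4 elongation factor genes headed the family. Per kilobase of the deposited gene length, Eef1a1 stood highest in Het HSC at 4707 CPM per kb, followed by Eef2 at 1009.8, Eef1b2 at 914 and Eef1g at 528. The 3 lowest tested members were Eif4e1b, an oocyte form of the cap-binding protein, at 0.154 CPM per kb, Eef1a2, the muscle and neuron form of eEF1A, at 0.0773, and Eif3j2 at 0.0502. Eif3j2 and its near-identical copy Eif3j1 cannot be separated by short reads, and Eif3j1 had 0 counts in all 24 libraries. The deposited length was within 1.5 times the exon length of the mm9 annotation for 35 of 53 members and departed from it most for Eif1ax (ratio 0.176) and Eif5a (ratio 5.06), so the place of such genes in the order depends on the annotation. The 4 leading genes kept their order with the annotated lengths. The other genes of the elongation group lay lower, with the exchange subunit gene Eef1d at 45.0 CPM per kb.

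**Figure D1:**
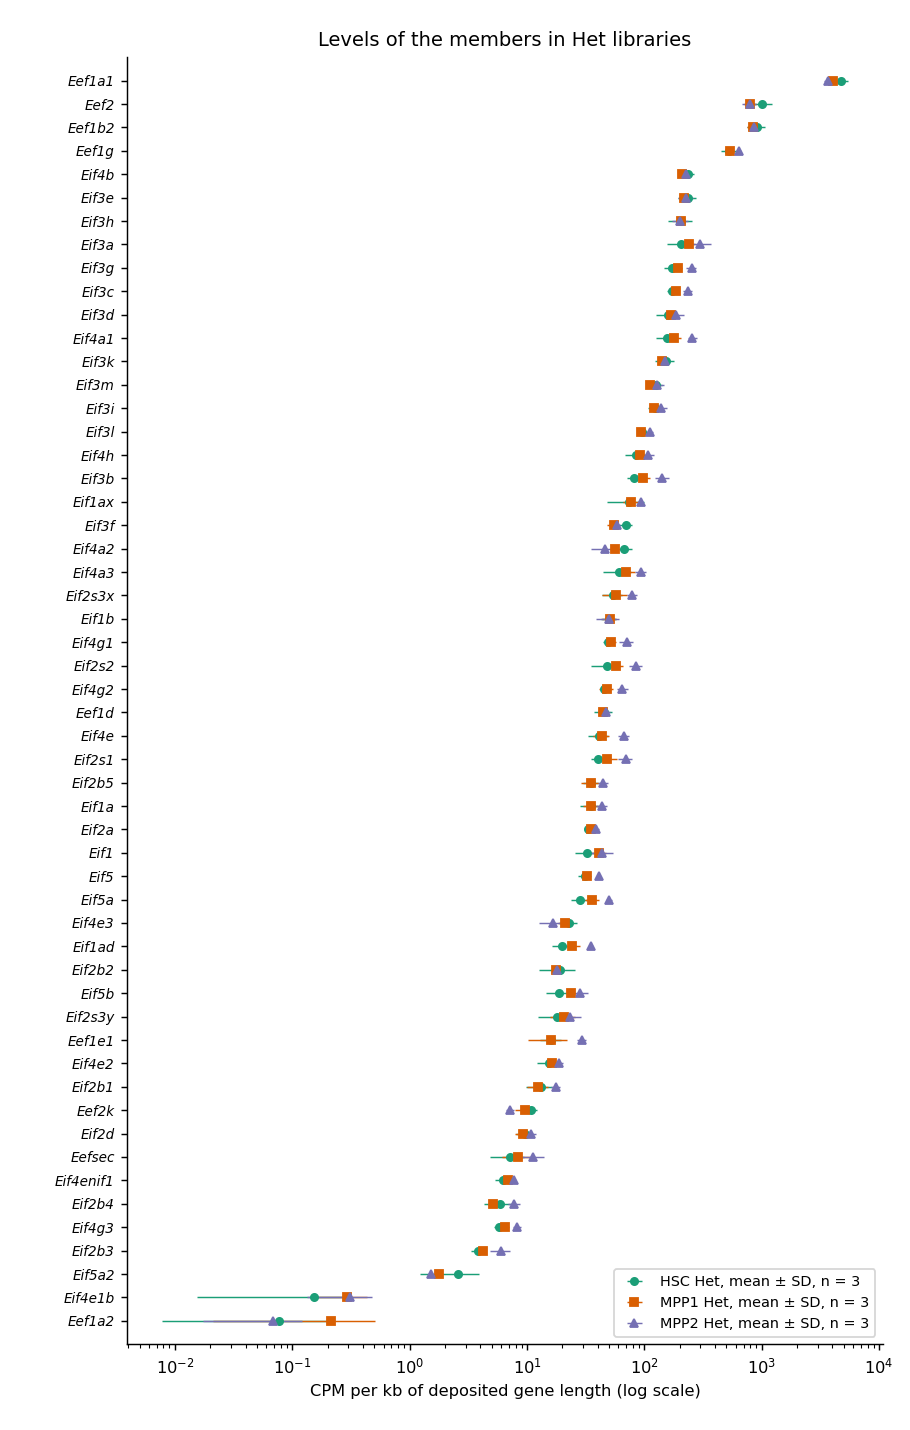
Level of each factor in Het libraries, as CPM per kilobase of deposited length on a log axis, with circles for HSC, squares for MPP1 and triangles for MPP2 (mean and SD, n = 3 each, bars that would reach below 0 cut short). Factors are ordered by their HSC level, from Eef1a1 at 4707 down to Eef1a2 at 0.0773 CPM per kb, and Eif3j1 and Eif3j2 are not shown.

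The smallest adjusted p for KO against Het belonged to Eef1g, which encodes the gamma subunit of the eEF1B exchange complex (mm9 chr19:9041531-9052969, plus strand). In HSC it had 604, 549 and 504 CPM in KO, against 716, 814 and 949 CPM in Het and 693 and 889 CPM in Sham. In MPP1 it had 713, 564 and 500.1 CPM in KO, against 887, 777 and 834 CPM in Het and 857 and 767 CPM in Sham. In MPP2 it had 791, 660.2 and 719 CPM in KO, against 996, 942 and 1051 CPM in Het and 1378 and 1159 CPM in Sham. Every KO library lay below every Het and every Sham library of its population. Averaged over the 3 populations Eef1g fell by 0.51 on the log2 scale in KO against Het (log2 change -0.51 ± 0.09 SE, edgeR quasi-likelihood test, Benjamini-Hochberg adjusted p = 0.000447). It passed in all 25 fits that were run, with changes of -0.65 to -0.47 and an adjusted p of at most 0.00177. The main test treated libraries of different populations as independent. In these bulk samples, fewer cells of a type and less RNA per cell cannot be told apart.

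Within single populations the Eef1g change was of like size but did not pass in the main test. It was -0.58 ± 0.15 in HSC (adjusted p = 0.0564), -0.49 ± 0.15 in MPP1 (0.311) and -0.46 ± 0.15 in MPP2 (0.326). In HSC the adjusted p was 0.0249 without the Het 1 library and 0.0209 with DESeq2's size factors as the scaling. There Eef1g passed in 6 of 13 alternative fits, with an adjusted p of up to 0.354, or 0.209 with 1 library left out. In MPP1 and in MPP2 it passed in 2 of 12, with an adjusted p of up to 0.812 and 0.796. None of the 55 factors passed the main test for KO against Het in any single population. Of all genes, 0.615% did in HSC, 0.0559% in MPP1 and 0.415% in MPP2. At an unadjusted p under 0.05 the factors counted 9 higher and 3 lower in HSC, 10 and 1 in MPP1, and 5 and 2 in MPP2, where 14.5%, 8.67% and 5.63% of all genes stood under it in either direction. DESeq2 called 2, 1 and 1 factors (3.64%, 1.82% and 1.82%, against 3.01%, 0.345% and 0.778% of all genes). KO and Het libraries did not overlap for 12 of 55 factors in HSC, 9 in MPP1 and 12 in MPP2, where 11.6%, 21.7% and 14.7% of all genes did not overlap. Eef1g was the only factor whose KO and Het libraries did not overlap in all 3 populations in the same direction, which 0.238% of all genes also showed in the lower direction and 0.881% in the higher.

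Other major elongation factors had lower means in KO than in Het HSC, short of the test. Eef2, the translocation factor, had 2130.1, 2269 and 2589 CPM in KO HSC, against 2439.7, 3288 and 3663 CPM in Het and 2933 and 2994 CPM in Sham. The KO and Het ranges overlapped, and the change was -0.43 ± 0.15 (adjusted p = 0.175). Without the Het 1 library, the lowest of the Het values, it was -0.58 and passed. Averaged over populations Eef2 changed by -0.24 ± 0.09 (adjusted p = 0.0887). Eef1b2, the catalytic subunit of the exchange complex, had 1321, 1486 and 1823 CPM in KO HSC, against 1445, 1799.8 and 2057 CPM in Het, with overlap. Eef1a1, the tRNA carrier, had 6808, 7032 and 7818 CPM in KO HSC, against 6930.0, 8753 and 9580.2 CPM in Het, also with overlap. Eef1b2, Eef1g, Eef2 and Eif4a2 were the 4 factors with a change below 0 in all 3 populations (7.27% of 55, against 24% of all genes), while 31 factors were above 0 in all 3 (56.4%, against 21.8%), both with the main scaling.

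No other gene of the elongation group passed apart from Eif5a. Eef1d, another exchange subunit, averaged a change of 0.01 ± 0.09. Eef2k, the kinase that phosphorylates and slows eEF2, averaged 0.15 ± 0.09 (adjusted p = 0.328), Eefsec, which carries the selenocysteine tRNA, 0.25 ± 0.14 (0.33), and Eef1e1, a component of the aminoacyl-tRNA synthetase complex, 0.15 ± 0.14 (0.564). Eif5a, which relieves stalled ribosomes and promotes termination, rose and is given with the initiation factors. Its paralogue Eif5a2 ranged from 3.12 to 12.7 CPM in KO and from 8.12 to 20.6 CPM in Het HSC, and its change of -0.63 ± 0.38 there was within that spread (adjusted p = 0.459). Eef1a2 reached 3.45 CPM in the HSC KO 2_3 library and at most 1.53 CPM in any other.

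Some major elongation factors were also read as a share of the factors' own counts, a measure that does not depend on how libraries are scaled. Eef1a1, Eef2, Eef1b2, Eef1g and Eef1d, a set chosen after their values were seen, made up 48.3, 53.3 and 54.5% of the factors' counts in KO HSC, against 56.8, 61.9 and 59.9% in Het and 60.9 and 61.8% in Sham. In MPP1 the share was 48.7, 50.8 and 50.3% in KO, against 51.8, 57.9 and 55.3% in Het and 57.2 and 55.2% in Sham. In MPP2 it was 45.8, 45.7 and 45.8% in KO, against 47.1, 49.9 and 49.1% in Het and 49.3 and 49.4% in Sham. The KO libraries lay below the Het and Sham libraries in each population. No test was made of this share because the genes were chosen after seeing their values. The set includes Eef1g, and the remaining counts include the factors that rose, so the choice itself favours a lower KO share.

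**Figure D2:**
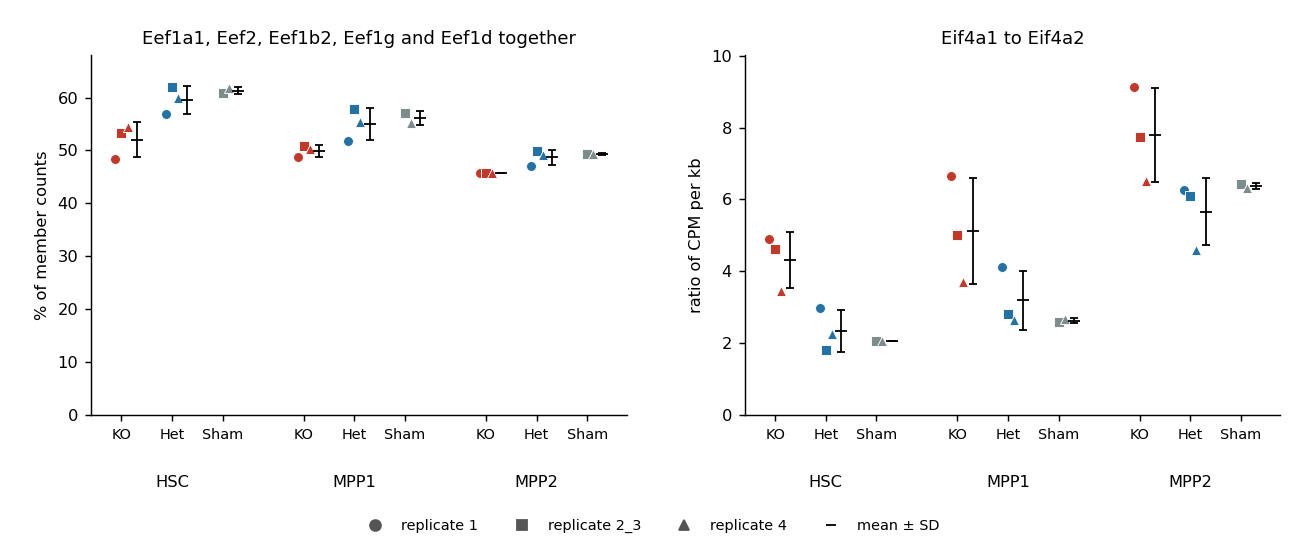
Left, percent of all factor counts held by Eef1a1, Eef2, Eef1b2, Eef1g and Eef1d, and right, ratio of Eif4a1 to Eif4a2 in CPM per kb, with 1 point per library, its shape giving the replicate label, and mean and SD beside each group. The KO libraries hold 45.7 to 54.5% and lie below the Het and Sham libraries of their population on the left, for a set of genes chosen after their values were seen.

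Several initiation factors rose in KO against Het. Averaged over populations, 9 of 55 factors rose and 1 fell in KO against Het, where 4.32% of all genes rose and 1.41% fell (5.73% in either direction). By role, 4 of 13 cap-binding and helicase factors rose (Eif4h, Eif4a3, Eif4a1 and Eif4e), 2 of 6 genes of the eIF2 group (Eif2s1 and Eif2s2), 1 of 13 tested eIF3 genes (Eif3b), 1 of 7 start-codon and joining factors (Eif1ad), 0 of 5 eIF2B subunits, and in the elongation group Eif5a rose and Eef1g fell. The median change of the 55 was 0.15, against -0.05 over all genes tested. 44 of 55 lay above 0, against 39 of 55 with DESeq2's size factors in edgeR and 30 of 52 on the deposited normalized table.

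The counts differed between fits. With DESeq2's size factors in edgeR 5 rose and 3 fell (2.95% and 1.63% of all genes), the added falls being Eef2 (-0.29, adjusted p = 0.0403) and Eif4a2 (-0.35, 0.0361), and DESeq2 itself gave 10 and 3 (4.7% and 2.9% of all genes). On the normalized table the authors deposited, which holds 52 of the factors, limma gave 2 that rose (Eif2s1 and Eif4a1) and 5 that fell (Eef1g, Eef2, Eif4a2, Eif3d and Eif4g3), where 4.32% of its genes rose and 4.08% fell, and the factors' median change was 0.04. The 2 rises are 3.85% of the 52 factors, close to that background. That fit differs in genes, scale and test together, and their parts in the shift cannot be told apart. In MPP1 that table moves the median of all genes from -0.11 to 0.00 for KO against Het. The gap between TOP mRNAs and the rest kept its direction in these 3 fits, since the 9 factors known as TOP mRNAs had a median of 0.00 and the other 46 of 0.19 in the main test, -0.05 and 0.14 with DESeq2's size factors, and -0.13 and 0.08 on the normalized table.

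**Figure D3:**
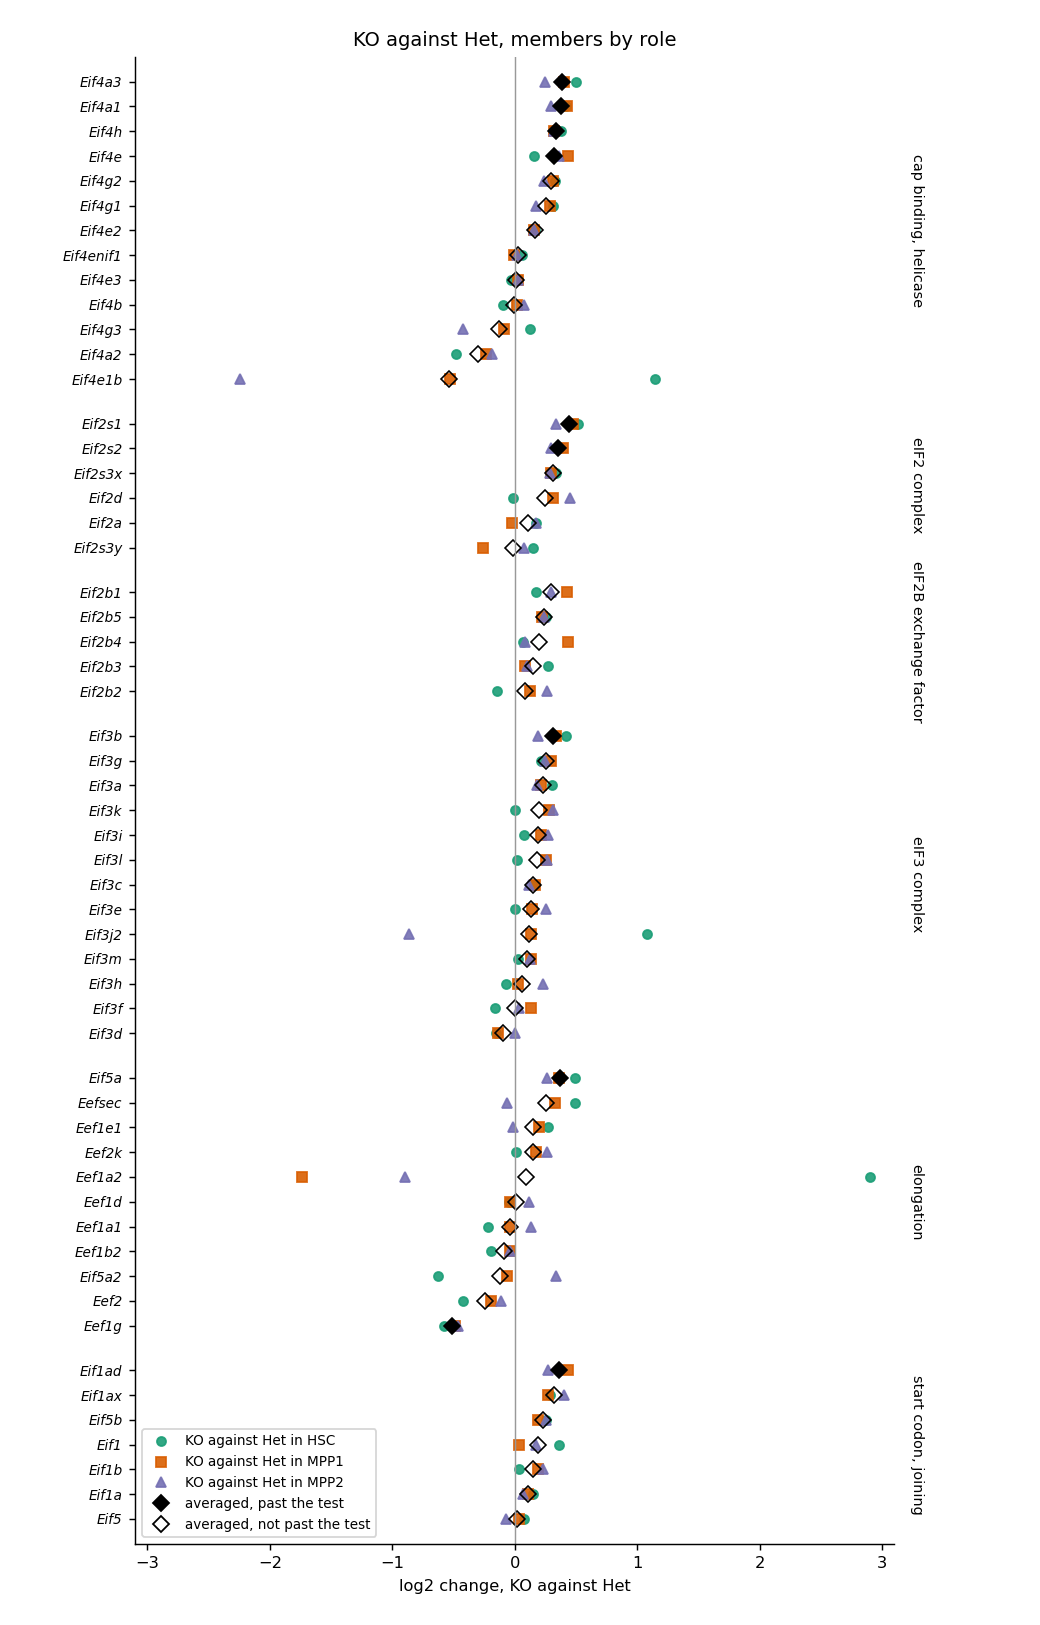
Log2 change of each tested factor for KO against Het, by role, with circles for HSC, squares for MPP1, triangles for MPP2 and diamonds for their average, filled where the edgeR adjusted p of the average is under 0.05. 9 filled diamonds lie above 0, led by Eif2s1 at 0.44, and 1 below it, Eef1g at -0.51. The widest spreads belong to Eef1a2, Eif4e1b and Eif3j2, which have very few counts.

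4 promoters of factors that rose in the averaged main test hold the palindrome CACGTG, the E-box core bound by MYC and related factors. They are shown because their genes share that call. The search covered, on both strands, 250 bases before to 50 bases after each annotated start in RefSeq's GRCm38.p6 promoters, a later build than the mm9 of the counts, and 45 of the 56 factors matched that table. The motif is in capitals and the sequences run 5′ to 3′ on the gene's strand.
Eif4a1: atcgcctccgCACGTGtaaaggtgct
Eif4e: acacgtccgtCACGTGggcaggagcc
Eif4h: gccgccgcacCACGTGggccgcagag
Eif5a: ggggcggggtCACGTGtgtgcgtcat
These lie at chr11:69672597-69672622 on the minus strand for Eif4a1, chr3:138527194-138527219 on the plus strand for Eif4e, chr5:134639490-134639515 on the minus strand for Eif4h and chr11:69921445-69921470 on the minus strand for Eif5a, with the motif beginning at -189, -64, -96 and -74 from the start. It was present in 4 of the 9 factors that rose (44.4%), in 5 of 17 that rose in MPP2 against HSC (29.4%), in 10 of the 40 matched factors not known as TOP mRNAs (25%), in 2 of the 5 that are (40%), in 1478 of 15408 promoters of genes tested here (9.59%) and in 6 of 56 ribosomal protein promoters (10.7%). Eef2, Eif3f, Eif4g1, Eif3a, Eif3k, Eef2k, Eif5a2 and Eif1b, which did not pass in KO against Het, also hold it, and a match is a description of letters, not of binding. Eif4e holds a further site at -228, and Eif5a holds one at -178 from another annotated start.

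A tract of the TOP kind was looked for at the annotated start of the same promoters. The rule was a C followed by at least 4 pyrimidines and beginning within 5 bases of the start. A stretch that fits this rule stood in 2 of the 5 matched factors known as TOP mRNAs, shown here in capitals. Which start these mRNAs use in these cells was not tested, so the stretch need not be their TOP tract.
Eef1a1: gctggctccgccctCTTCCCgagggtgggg
Eif3f: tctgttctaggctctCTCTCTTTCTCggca
The windows are chr9:78481710-78481739 on the minus strand for Eef1a1 and chr7:108934400-108934429 on the plus strand for Eif3f, in GRCm38.p6. The share was 9 of 40 in the other factors (22.5%), 27 of 56 in ribosomal protein promoters (48.2%) and 22.1% in all genes tested here. Eif3f, a regulatory eIF3 subunit, had 97.8, 83.6 and 98.6 CPM in KO HSC, against 89.5, 114 and 109 CPM in Het, and changed by 0.00 ± 0.09 on average.

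Eif2s1 encodes eIF2 alpha, the subunit whose phosphorylation shuts down initiation under stress (mm9 chr12:79962806-79987997, plus strand). It had 209.5, 158 and 176 CPM in KO HSC, against 129.9, 109 and 142 CPM in Het and 82.5 and 124 CPM in Sham. In MPP1 it had 249.7, 188 and 192 CPM in KO, against 187, 127 and 138 CPM in Het. In MPP2 it had 313, 238 and 276 CPM in KO, against 223, 186 and 246 CPM in Het. KO and Het did not overlap in HSC and MPP1 and overlapped in MPP2. The averaged change was 0.44 ± 0.10 (adjusted p = 0.00819). It passed in 24 of 25 fits and missed in the one without both HSC libraries of few detected genes (0.37, adjusted p = 0.056).

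The other eIF2 genes showed smaller changes. Eif2s2, the beta subunit, had 169.8, 145 and 154 CPM in KO HSC, against 124, 86.7 and 154 CPM in Het, with overlap, and rose by 0.35 ± 0.10 on average (adjusted p = 0.038, 13 of 25 fits). The gamma subunit has an X-linked and a Y-linked gene. Eif2s3x changed by 0.31 ± 0.10 (adjusted p = 0.0589) and Eif2s3y by -0.01 ± 0.14, and Eif2s3y lay between 20.6 and 48.5 CPM in every library, in pools that the labels describe as holding both sexes. Eif2d, an alternative factor that brings tRNA to the ribosome, had the largest change of the group in MPP2 with 69.2, 49.2 and 64.1 CPM in KO, against 43.3, 49.6 and 40.5 CPM in Het (0.45 ± 0.19, adjusted p = 0.744, with overlap). Its exons overlap those of Rassf5 on the other strand, and whether counting used strand is not given in the sources used here.

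Among the cap-binding and helicase factors Eif4h, which stimulates the helicase eIF4A, passed in the most fits (mm9 chr5:135095747-135115218, minus strand). It had 284, 255 and 261 CPM in KO HSC, against 174, 188 and 253 CPM in Het and 187 and 190.4 CPM in Sham. In MPP1 it had 321, 251 and 262 CPM in KO, against 238, 215 and 215 CPM in Het. In MPP2 it had 343, 289 and 344 CPM in KO, against 252, 238 and 292 CPM in Het. KO and Het did not overlap in HSC and MPP1, and in MPP2 the lowest KO library lay just under the highest Het library. Eif4h rose by 0.34 ± 0.08 (adjusted p = 0.0132) and passed in 22 of 25 fits. The exceptions were the fit without MPP1 KO 1 (adjusted p = 0.0688), the fit without the 2 HSC libraries (0.0629) and limma on the normalized table (0.0694).

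Eif4a1 and Eif4a2 encode closely related forms of the helicase and lay on opposite sides of Het in KO HSC. Eif4a1 had 905, 739.7 and 689 CPM in KO HSC, against 628, 456 and 666 CPM in Het and 394 and 574 CPM in Sham. Eif4a2 had 382, 332 and 414 CPM in KO HSC, against 438, 525 and 609.8 CPM in Het and 394 and 576 CPM in Sham. KO and Het HSC did not overlap for either gene, with Eif4a1 higher and Eif4a2 lower in KO. Averaged over populations Eif4a1 rose by 0.38 ± 0.10 (adjusted p = 0.0221, 17 of 25 fits) while Eif4a2 changed by -0.30 ± 0.10 (adjusted p = 0.0697). As a ratio per length, Eif4a1 to Eif4a2 was 4.32 ± 0.77 in KO, 2.34 ± 0.59 in Het and 2.06 in Sham HSC. It was 5.12 ± 1.48, 3.19 ± 0.82 and 2.63 ± 0.07 in MPP1 and 7.79 ± 1.31, 5.65 ± 0.93 and 6.37 ± 0.08 in MPP2, in the same order of groups (SD, n = 3, 3 and 2). The KO and Het ranges of the ratio did not overlap in HSC (3.44 to 4.89, against 1.79 to 2.97) and MPP2 (6.50 to 9.12, against 4.59 to 6.27), and overlapped in MPP1. With the annotated lengths every ratio is multiplied by 0.596, which gives 2.57 in KO, 1.40 in Het and 1.23 in Sham HSC and leaves the comparison of groups as it is. Both genes host small nucleolar RNAs, and Eif4a2 exons overlap Rfc4 on the other strand.

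Eif4a3, the form that serves in the exon junction complex rather than at the cap, had 139, 123 and 113 CPM in KO HSC, against 101, 60.8 and 104 CPM in Het, with no overlap. It rose by 0.38 ± 0.10 on average (adjusted p = 0.0211, 18 of 25 fits). The cap-binding protein gene Eif4e had 206, 158 and 142 CPM in KO MPP1, against 147, 118 and 109 CPM in Het, with overlap, and 296, 221 and 231 CPM in KO MPP2, against 193, 173 and 215 CPM in Het, without. Its averaged rise of 0.32 ± 0.10 lay at the threshold (adjusted p = 0.0495) and passed in 8 of 25 fits. The related Eif4e2, Eif4e3 and Eif4e1b changed by 0.16 ± 0.09, 0.01 ± 0.12 and -0.54 ± 0.88, none past the test.

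The scaffold genes differed among themselves in MPP2. Eif4g3 had 112, 113 and 115 CPM in KO MPP2, against 164, 151 and 139.5 CPM in Het and 142 and 138 CPM in Sham, without overlap (-0.42 ± 0.16, adjusted p = 0.566). Eif4g1, the main scaffold, had 887, 798 and 894 CPM in KO MPP2, against 835, 648 and 808 CPM in Het. The ratio of Eif4g1 to Eif4g3 per length was thus 12.97 ± 0.80 in KO, 8.62 ± 1.28 in Het and 11.4 ± 0.73 in Sham MPP2. Averaged over populations Eif4g1 changed by 0.26 ± 0.08 (adjusted p = 0.0601) and Eif4g2, a scaffold for cap-independent initiation, by 0.29 ± 0.09 (0.0535), just short of the threshold.

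Eif5a had 581, 433 and 418 CPM in KO HSC, against 361, 276 and 379.6 CPM in Het and 249 and 358 CPM in Sham. KO and Het did not overlap there or in MPP2, where it had 805, 635 and 716 CPM in KO, against 629, 605 and 564 CPM in Het. It rose by 0.37 ± 0.10 on average (adjusted p = 0.0229, 17 of 25 fits). Eif3b, a core scaffold of eIF3, had 383, 292 and 295 CPM in KO HSC, against 226, 223 and 277 CPM in Het and 163 and 229 CPM in Sham, without overlap, and rose by 0.31 ± 0.09 on average (adjusted p = 0.0368, 13 of 25 fits). The rest of eIF3 stayed under the threshold, with the largest change in MPP2 that of Eif3k at 0.31 ± 0.15 (adjusted p = 0.855). Eif1ad, a relative of eIF1A, had 68.3, 64.7 and 57.2 CPM in KO HSC, against 47.4, 41.3 and 58.5 CPM in Het, with overlap, and rose by 0.36 ± 0.10 (adjusted p = 0.0329, 13 of 25 fits). Eif1ax, the X-linked eIF1A gene, changed by 0.32 ± 0.11 (adjusted p = 0.0804), Eif1, which guards start-codon choice, by 0.19 ± 0.11 (0.364), and its paralogue Eif1b by 0.15 ± 0.11 (0.435).

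All 5 eIF2B subunits had averaged changes above 0 and none passed. Eif2b4 showed the largest in MPP1 with 44.6, 35.0 and 37.8 CPM in KO, against 29.3, 30.5 and 27.4 CPM in Het, without overlap (0.43 ± 0.20, adjusted p = 0.564). Eif2b3 was the largest in HSC (0.27 ± 0.18, adjusted p = 0.521) and Eif2b1 in MPP2 (0.30 ± 0.23, 0.993).

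**Figure D4:**
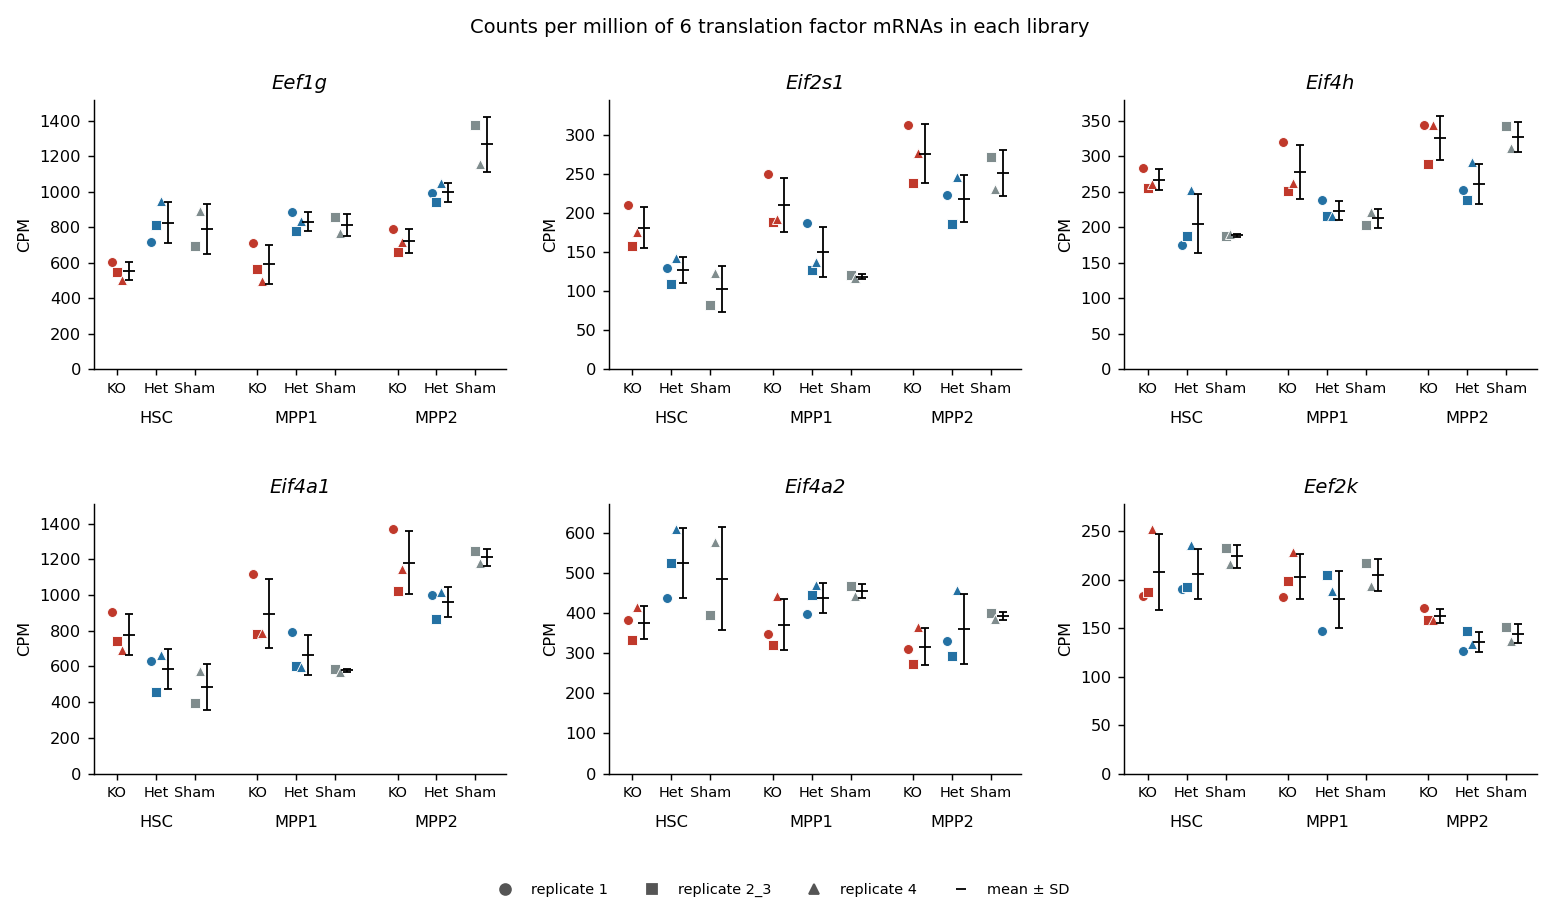
CPM of Eef1g, Eif2s1, Eif4h, Eif4a1, Eif4a2 and Eef2k in each library, by population with KO left of Het and Sham, each point 1 library, its shape giving the replicate label, and mean and SD beside each group. Eef1g KO libraries (500.1 to 791 CPM) lie below the Het and Sham libraries of the same population, while Eif2s1 KO libraries lie above the Het libraries in HSC and MPP1.

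The averaged count rests on all the libraries together. It was 2 without MPP1 KO 1, 3 without HSC KO 1, MPP1 Het 2_3 or MPP2 KO 1, 4 without HSC Het 2_3 or MPP1 Het 4, 5 without MPP2 Het 2_3, 6 without MPP2 KO 4 and 17 without MPP1 Het 1, against 10 with all. The share of all genes called moved too, being 2.56% without MPP1 KO 1 and 8.13% without MPP1 Het 1, beside 3.64% and 30.9% of the factors. Without both HSC libraries of few detected genes, an alternative added after seeing the data, only Eef1g passed (-0.54, adjusted p = 0.00125; 2.41% of all genes passed). There Eif4a3 changed by 0.28 (adjusted p = 0.101), Eif4a1 by 0.29 (0.135), Eif1ad by 0.30 (0.142), Eif5a by 0.27 (0.146), Eif2s2 by 0.27 (0.168), Eif3b by 0.25 (0.175) and Eif4e by 0.27 (0.186). The labels do not say whether pools with the same number gave cells to all 3 populations. If they did, the averaged p-values would be too small. KO 1 was the highest KO library in all 3 populations for Eif4a1, Eif4a3, Eif5a, Eif2s1, Eif2s2, Eif1ad, Eif4e and Eef1g. For Eif4h and Eif3b it was so in HSC and MPP1 but not in MPP2. Likeness of same-numbered libraries across populations was not tested. The change in KO did not differ between populations for any factor by the test of the difference itself (0 of 55, where 0%, 0.0326% and 0% of all genes passed in the 3 pairs of populations). At an unadjusted p under 0.05, 0, 1 and 0 factors differed, beside 1044, 1565 and 512 of all 21456 genes. DESeq2 also called 0 factors.

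KO against Sham sets the knockout beside floxed mice given corn oil, so it differs in tamoxifen as well, and it shares its KO libraries with the comparison above. In HSC 2 of 55 factors rose and none fell (2.28% of all genes passed and 1.9% rose). Eif2s1 rose by 0.81 ± 0.20 (adjusted p = 0.0253) and Eif3b by 0.72 ± 0.18 (0.0274), and for both genes every KO library lay above both Sham libraries. Without HSC KO 1 these changes were 0.70 (adjusted p = 0.143) and 0.58 (0.169), and without Sham 2_3 they were 0.50 (0.544) and 0.44 (0.551). In MPP1 no factor passed (0.121% of all genes did), with 19 higher and 1 lower at an unadjusted p under 0.05 (10.4% of all genes) and 2 called by DESeq2 (3.64%, against 0.694% of all genes). In MPP2 Eef1g fell by 0.81 on the log2 scale (± 0.16 SE, adjusted p = 0.0103, where 0.629% of all genes passed and 0.14% fell), and missed without KO 2_3 (-0.75, 0.0716) or without Sham 2_3 (-0.68, 0.646), the library high in late erythroid genes. The median change of the factors against Sham was 0.27 in HSC, 0.28 in MPP1 and -0.04 in MPP2, beside 0.05, -0.11 and 0.10 over all genes tested, and the MPP2 value turned to 0.06 without Sham 2_3.

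Het and Sham did not separate by the test. No factor passed in any population, and neither did any gene (0%), with edgeR or, for the factors, with DESeq2. At an unadjusted p under 0.05 the factors counted 5 higher in HSC, 0 in MPP1 and 14 lower in MPP2, where 6.92%, 0.965% and 5.32% of all genes stood under it. In MPP2 44 of 55 factors lay lower in Het than in Sham, with a median of -0.25 against 0.14 for all genes, and all 13 tested eIF3 genes were among them. On the deposited normalized table the MPP2 median was -0.07 and 36 of 52 lay below 0, in a fit that differs in genes, scale and test together. Without Sham 2_3 the MPP2 median was -0.08 in the main test. Eef1a1 in MPP2 had 6094, 6393 and 7068 CPM in Het, against 8255 and 7158 CPM in Sham, without overlap.

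The largest count of rising factors came from MPP2 against HSC in Het mice. 19 of 55 factors rose and 2 fell (18% of all genes passed, 9.59% rising and 8.37% falling), with a median change of 0.35, against -0.01 over all genes. The counts by role were 6 of 13 cap-binding and helicase factors, 3 of 6 of the eIF2 group, 1 of 5 eIF2B subunits, 4 of 13 eIF3 genes, 3 of 7 start-codon and joining factors and 2 of 11 elongation genes that rose. Those that fell were Eif4a2 and Eef2k. None of the 9 TOP mRNAs passed, and their median was -0.07, beside 0.39 for the other 46.

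Eif5a had 629, 605 and 564 CPM in Het MPP2, against 361, 276 and 379.6 CPM in Het HSC, and rose by 0.82 ± 0.17 (adjusted p = 0.000805). Eif3b had 467, 359 and 441 CPM in Het MPP2, against 226, 223 and 277 CPM in Het HSC, and rose by 0.80 ± 0.16 (0.00044). Eif2s1 had 223, 186 and 246 CPM in Het MPP2, against 129.9, 109 and 142 CPM in Het HSC (0.78 ± 0.17, 0.00155). The MPP2 and HSC libraries did not overlap for any of these. Eif2s2 rose by 0.80 ± 0.18 (adjusted p = 0.00155), Eif1ad by 0.83 ± 0.18 (0.00105), Eif4e by 0.71 ± 0.17 (0.00287) and Eif4a1 by 0.72 ± 0.18 (0.00351). Eef1e1, low throughout, had 33.2, 28.3 and 29.5 CPM in Het MPP2, against 16.8, 20.1 and 13.5 CPM in Het HSC (0.85 ± 0.24, 0.0113). The other 11 that rose, by 0.39 to 0.64, were Eif2b3 (a subunit of eIF2B), Eif4a3, the ribosome-joining GTPase Eif5b, Eif3g, Eif3a, Eif2s3x, Eif4g2, Eif4g1, Eif4g3, Eif3c and Eif5, which triggers GTP hydrolysis on eIF2.

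Eef2k, the eEF2 kinase, had 126, 146 and 133 CPM in Het MPP2, against 190.0, 192 and 236 CPM in Het HSC. All MPP2 libraries lay below all HSC libraries, and the change was -0.60 ± 0.15 (adjusted p = 0.00367). Its substrate Eef2 had 2388, 2145 and 2814 CPM in Het MPP2, against 2439.7, 3288 and 3663 CPM in Het HSC (-0.35 ± 0.15, adjusted p = 0.102), so the ratio of Eef2 to Eef2k per length was 110.9 ± 20.0 in MPP2 and 92.4 ± 13.2 in HSC of Het mice. Eif4a2 had 329.5, 292 and 457 CPM in Het MPP2, against 438, 525 and 609.8 CPM in Het HSC, with overlap, and fell by 0.54 on the log2 scale (± 0.17 SE, adjusted p = 0.025). It missed without HSC Het 2_3 (adjusted p = 0.0678), HSC Het 4 (0.134), MPP2 Het 1 (0.115) or MPP2 Het 2_3 (0.145).

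**Figure D5:**
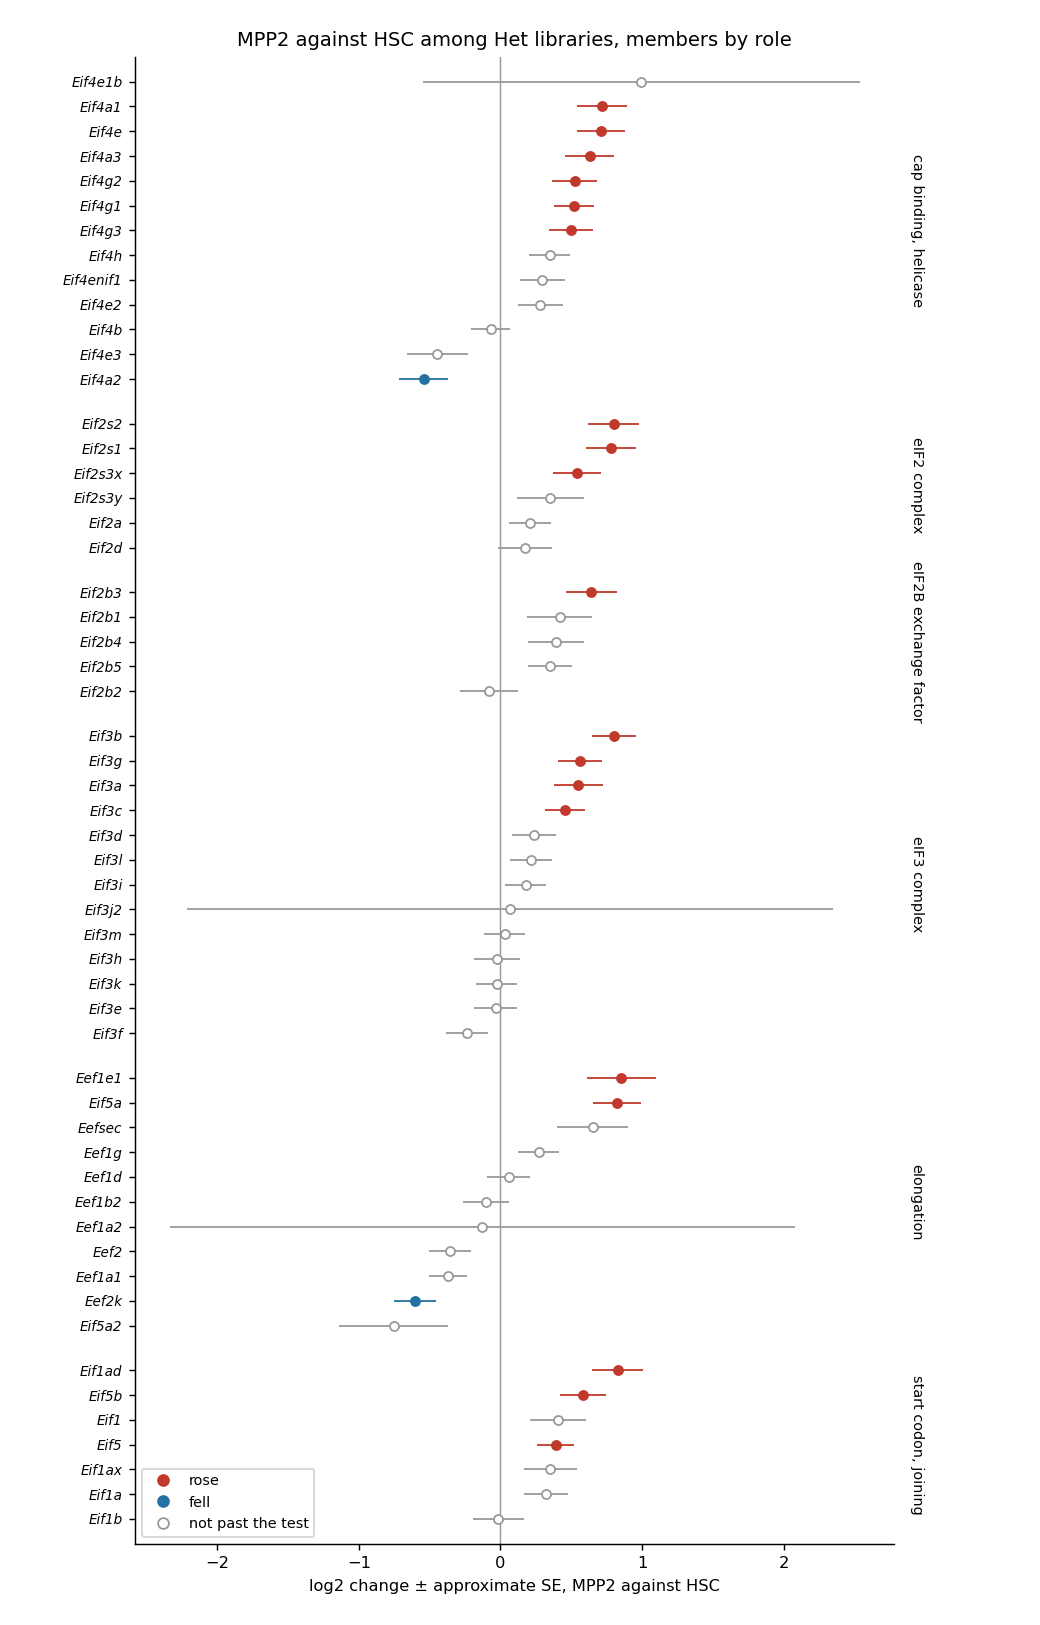
Log2 change of each tested factor for MPP2 against HSC in Het mice, by role, with its approximate standard error as the bar, filled where the edgeR adjusted p is under 0.05. 19 factors lie above 0 and past the test, up to 0.85 for Eef1e1, and Eef2k at -0.60 and Eif4a2 at -0.54 lie below.

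With the deposited normalized table the split in MPP2 against HSC was 12 higher and 7 lower, the lower ones including Eef2 (-0.95) and Eef1b2, and with DESeq2's size factors it was 19 and 3. All genes of that table gave 18.1% rising and 18.1% falling, so the factors there lie near the background, and with the size factors all genes gave 9.35% and 9.07%. Eif5a, Eif2s1, Eif1ad, Eif2s2, Eif4e, Eif3b, Eif4a1 and Eef2k passed in all 14 fits of this comparison. The count of 21 was 11 without MPP2 Het 1, 12 without HSC Het 2_3 and 20 without MPP2 Het 2_3, where 13.3%, 13% and 17.2% of all genes passed. MPP2 against MPP1 in Het gave 4 that rose and 0 that fell (7.49% of all genes passed and 3.23% rose): Eef1e1 by 0.87, Eif4e by 0.64, Eif3b by 0.56 and Eif1ad by 0.56. None of the 4 stood without MPP1 Het 2_3, MPP1 Het 4, MPP2 Het 1 or MPP2 Het 4, and 13 factors passed without MPP1 Het 1. Of all 21342 genes tested in that last fit, 1177 rose and 1081 fell. For MPP1 against HSC no factor passed with edgeR or DESeq2 (0.014% of all genes passed with edgeR). At an unadjusted p under 0.05, 1 factor was higher and 2 were lower, beside 2123 of all 21456 genes in either direction.

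Other parts of the translation system, in lists assembled with earlier results known, are given for KO against Het averaged over populations. The values are from the main test alone. There 4.32% of all genes rose and 1.41% fell on average. In either direction 0.615% passed in HSC, 0.0559% in MPP1 and 0.415% in MPP2. Cytosolic ribosomal proteins fell in 29 of 75 tested and rose in none, with a median of -0.15, and the falls were 16 in HSC, 1 in MPP1 and 0 in MPP2. Of 24 other cytosolic translation factors 4 rose, with the initiation helicase Dhx29 at 0.46 (adjusted p = 0.0081), the release factor Etf1 at 0.39 (0.0165) and the ribosome-recycling ATPase Abce1 at 0.37 (0.0243), and 1 fell, the ribosomal scaffold Gnb2l1 at -0.42 (0.00256). Gnb2l1 is itself known as a TOP mRNA and also fell in HSC alone (-0.61, adjusted p = 0.0397). Of 18 genes of the integrated stress response, which is set off by phosphorylated eIF2 alpha, 3 rose (Psat1, a serine synthesis enzyme, by 0.56, the stress-induced Sesn2 by 0.81 and the transcription factor Cebpg by 0.32), and Atf4, its central factor, changed by 0.14 (adjusted p = 0.348). None of 17 genes of mTORC1 and eIF4E control and none of 6 eIF2 kinase and phosphatase genes passed (5 higher and 0 lower, and 1 and 1, at an unadjusted p under 0.05). Of all 21456 genes tested, 4409 stood under that unadjusted threshold. Of 9 mitochondrial translation factors 1 rose, the elongation factor Gfm1 (0.36, adjusted p = 0.0482).

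Some markers of other cells differed by genotype in the same libraries, but not in every population. In HSC 5 megakaryocyte genes summed to 658 to 895 CPM in KO, against 115 to 328 CPM in Het and 201 to 255 CPM in Sham, with no overlap. In MPP1 they summed to 707 to 1174.5 CPM in KO, against 297 to 1049 CPM in Het, with overlap. In MPP2 they summed to 471 to 1151 CPM in KO, against 508 to 1280 CPM in Het, also with overlap. The 10 neutrophil genes summed to 96.8 to 161 CPM in KO HSC, against 55.9 to 588 CPM in Het and 60.7 to 314 CPM in Sham, with overlap, and at most 1 of them stood at 0 in any library. In MPP1 the neutrophil genes summed to 80.0 to 172 CPM in KO, against 149 to 480 CPM in Het, with overlap. In MPP2 they summed to 123 to 171 CPM in KO, against 203 to 3518 CPM in Het and 234 to 314 CPM in Sham, without overlap. The sums of the late erythroid genes overlapped between KO and Het in every population. The 8 HSC genes summed to 675 to 758 CPM in KO HSC, against 750.1 to 1234 CPM in Het and 873 to 1028 CPM in Sham, with a small overlap of KO and Het. In MPP2 the HSC genes summed to 289 to 322 CPM in KO, against 180.1 to 218 CPM in Het. The part of these differences in the results on translation factors was not tested. B cell genes summed to at most 18.5 CPM and T and NK cell genes to at most 48.3 CPM in any library.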

How the data were processed

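Bulk RNA from 24 sorted pools was sequenced as strand-marking, rRNA-depleted paired-end 50 bp libraries, per the labels' protocols. The deposited raw counts per gene were made by the authors on mm9. The submitters' processing notes name featureCounts, Bowtie 1.0.0, TopHat2 2.0.9 and Trimmomatic 0.33, among other tools. Filters and strand use in counting are not given in the sources used here. The deposited normalized signal table holds 12186 genes with column sums of 960789 to 1027628, and how the authors normalized it is not given in the sources used here. Gene lengths came with the deposited counts.

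The main test was edgeR 4.0.16 (R 4.3.3), two-sided robust quasi-likelihood with TMM scaling, on all 24 libraries in 9 groups (15 residual degrees of freedom), for 21456 genes that passed edgeR's filter (least count 10), with Benjamini-Hochberg adjustment over all of them and a threshold of 0.05. CPM use TMM-scaled library sizes. Standard errors were derived from the F statistic. Alternatives were RLE scaling, no filter, DESeq2 1.42.0, limma 3.58.1 on log2 of the deposited normalized signal plus 1, a replicate block, a fit on the compared populations alone, and each library left out. The script was tested on simulated data. Members, lists and tests were chosen with earlier results of these data known. Named factors are those past the test in any comparison, the largest KO against Het change in each role and population, the 3 highest and lowest per length in Het HSC, and paralogue sets; values of others were named after being seen. Genes with near-identical copies or processed pseudogenes (Eef1a1, Eef1b2, Eef1g, Eif4a1, Eif3j1, Eif3j2) have uncertain counts. Positions are from GENCODE's mm9 annotation.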

Additional observations from a re-analysis of the deposited data

How the results depend on the processing

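No called change reversed direction, but medians of the factors crossed 0 for KO against Sham in MPP2 (-0.17 to 0.06), Het against Sham in HSC (-0.01 to 0.27) and MPP1 against HSC (-0.02 to 0.15). Medians of the difference in KO change also crossed 0, for MPP1 against HSC (-0.09 to 0.13), MPP2 against HSC (-0.11 to 0.13) and MPP2 against MPP1 (-0.06 to 0.08). Het against Sham, MPP1 against HSC and the differences between populations gave 0 factors under every alternative. For KO against Het in HSC, 0 factors became 1 with RLE scaling, 1 with no filter, 5 with the replicate block (3.38% of all genes), 2 with DESeq2 (3.01%), 3 with limma (4.52%) and 0 to 2 with 1 library left out. In HSC 69 of 21456 genes rose and 88 fell with RLE scaling, and 67 and 72 of 22749 with no filter. DESeq2 and limma each gave 1 in MPP1 and 1 in MPP2. With DESeq2 29 of 21456 genes rose and 45 fell in MPP1, and 131 and 36 in MPP2. With limma 16 of 12186 genes rose and 43 fell in MPP1, and 60 and 14 in MPP2. Averaged over populations, 10 became 17 with the block (9.54% of all genes), 13 with DESeq2 (7.61%), 8 with RLE scaling (4.58%), 7 with limma (8.4%), 1 without the 2 HSC libraries of few detected genes and 2 to 17 with 1 library left out. For KO against Sham, 2 in HSC became 0 with no filter, 7 with the block (3.26% of all genes), 10 with DESeq2 (5.18%), 5 with limma (7.33%), 0 with the compared populations alone, 0 without the 2 HSC libraries and 0 to 5 with 1 left out. The 0 in MPP1 became 1 with the block, 2 with DESeq2 and 2 with limma, and the 1 in MPP2 became 2 with DESeq2 and 0 to 1 with 1 left out. Over all genes, KO against Sham in MPP1 gave 29 rising and 18 falling with the block and 91 and 58 with DESeq2 (of 21456 each). With limma it gave 38 and 54 of 12186, and in MPP2 DESeq2 gave 187 and 81 of 21456. MPP2 against HSC gave 11 to 20 with 1 left out, against 21. MPP2 against MPP1, 4, became 8 with RLE scaling (8.25% of all genes), 8 with no filter (7.26%), 13 with the block (11.1%), 15 with DESeq2 (11.7%), 14 with the compared populations alone (12.3%), 6 with limma (17.1%) and 0 to 13 with 1 left out. The cause of these shifts was not tested. Deviations of same-numbered KO and Het libraries from their group means correlated between -0.338 and 0.33, and those of differently numbered ones between -0.333 and 0.369. In MPP2 the same-numbered values were 0.00624, 0.33 and 0.224, and the others -0.286 to 0.0945. Deviations within a group cancel out, so these values cannot decide whether equal numbers mark pairs or a shared batch. The main test did not take the numbers as pairs. Counts of low members such as Eef1a2 and Eif4e1b give no usable precision.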
